A study of Rattus norvegicus with 30 samples.

Results

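Retinoic acid synthesis, binding and response was followed through 9 named rat genes: Rdh10, Dhrs3, Lrat, Aldh1a1, Aldh1a2, Cyp26b1, Crabp1, Rara and Stra8. They were taken by symbol, by a rule that uses no measured value but that was set with earlier results of these data known, and each symbol was matched to its Entrez gene number in a table of 17322 genes. Rows were found for 8 of the 9 genes. Stra8 was not analysed here. The numbers are 353252 for Rdh10, 313689 for Dhrs3, 64047 for Lrat, 24188 for Aldh1a1, 116676 for Aldh1a2, 312495 for Cyp26b1, 25061 for Crabp1 and 24705 for Rara.

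The study compared testes that matured in the animal with prepubertal testicular tissue matured in organotypic culture, in which germ cells enter meiosis but do not complete it. Polyadenylated RNA of Wistar Han rats was sequenced from whole testes at 8.5 and 14.5 days postpartum (dpp), then at 24.5 and 30.5 dpp and last at 36.5 and 53.5 dpp, with no treatment, and from explants dissected at 8.5 dpp and kept for 6 (D6), 16 (D16), 22 (D22) or 28 days (D28) at a gas-liquid interface. Counted from birth, D6 thus had the age of the testes at 14.5 dpp, D16 that at 24.5 dpp, D22 that at 30.5 dpp and D28 that at 36.5 dpp. Each group held 3 libraries, except 14.5 dpp, where 2 were used. The third was labelled an outlier and left out, as in the study, which gave its differing profile as the reason. That library was listed at 0 for every gene. All explants received the same αMEM with knock-out serum replacement, vitamin E and retinol at 1e-06 M, the substrate from which retinoic acid is made. No culture without retinol was among the samples, so the effect of retinol and that of culture cannot be told apart. Each cultured library pooled explants, and the necrotic centre of the explants had been cut away before RNA was extracted.

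Retinol enters cells with its carriers and is either stored as ester or oxidised in 2 steps, first to retinal and then to retinoic acid. Retinoic acid binds nuclear receptors on DNA, and CYP26 enzymes break it down. In the testis it is known for driving spermatogonia to differentiate and enter meiosis. In mouse testis the first oxidation is known from Sertoli cells, and the second from ALDH1A1 in Sertoli cells and ALDH1A2 in spermatocytes.

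Levels are in fragments per kilobase of transcript, scaled to the mapped total of each library (FPKM), so levels of different genes may be set side by side. A gene was called where limma, fitted to log2(FPKM + 1) over all genes with a group median of at least 0.5 FPKM, gave an adjusted p of at most 0.05 and the medians of the groups differed at least 2-fold. Differences on this log2 scale understate the change of genes near or below 1 FPKM. All 8 genes passed the filter in every comparison. At 8.5 dpp Lrat lay below 0.5 FPKM in all libraries, so its differences from that age were tested only because another group was higher.

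**Figure D1:**
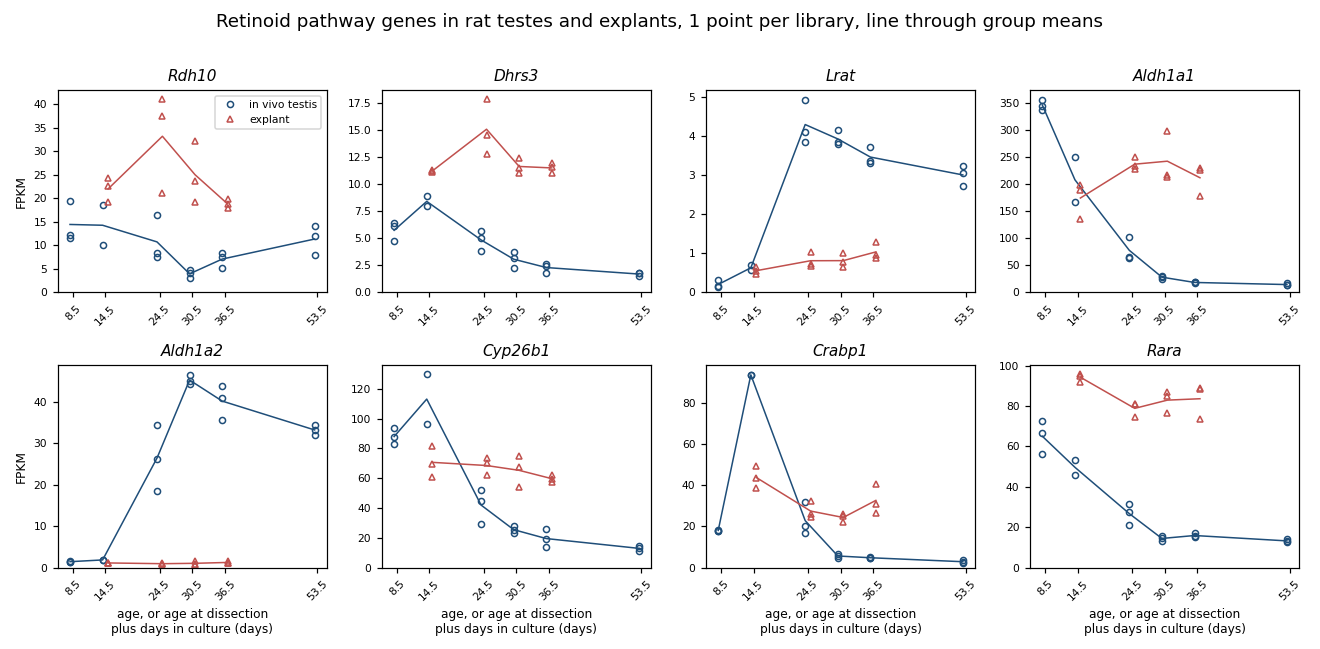
FPKM of the 8 genes (vertical axes, linear) against age in days, or age at dissection plus days in culture (horizontal axes). Circles are libraries of testes in vivo, triangles libraries of explants, and lines join group means. Aldh1a2 climbs from under 2 FPKM to over 18 FPKM in vivo and stays under 2 FPKM in every explant, while Aldh1a1 and Rara fall in vivo and stay high in explants.

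Over the 6 ages in vivo all 8 genes were called by the F test, where 90.2% of all genes tested were called too. By 53.5 dpp, 7 of the 8 differed from 8.5 dpp, and 73.9% of all genes did. Aldh1a2 and Lrat were higher, as were 23.7% of all genes, and Aldh1a1, Crabp1, Cyp26b1, Rara and Dhrs3 were lower, as were 50.2%. With the libraries rescaled by their median ratios, 4379 genes were called higher and 4256 lower, in place of 2970 and 6295, and the median difference was -0.02. As deposited, the median difference over all genes between these ages was -0.74 on the log2 scale, and that over the 8 genes was -1.76.

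Of the 8 genes, Aldh1a1 and Aldh1a2 are the retinal dehydrogenases that make retinoic acid, and they moved in opposite directions. Aldh1a1 was at 357, 339 and 345 FPKM in the 3 libraries at 8.5 dpp and at 250 and 167 FPKM at 14.5 dpp. It was at 66.6, 64.1 and 103 FPKM at 24.5 dpp, 29.4, 25.0 and 30.5 FPKM at 30.5 dpp, 17.0, 19.1 and 19.5 FPKM at 36.5 dpp and 13.7, 13.2 and 16.9 FPKM at 53.5 dpp. No 2 successive ages overlapped, and the gap was narrowest between 36.5 and 53.5 dpp. Aldh1a1 fell by 1.41 ± 0.199 (SE) between 14.5 and 24.5 dpp (limma, adjusted p = 3.1e-05) and by 1.40 ± 0.178 between 24.5 and 30.5 dpp (limma, adjusted p = 9.3e-06). With the libraries rescaled by their median ratios the second difference was -0.93 and was not called. The step from 8.5 to 14.5 dpp was not called (limma, -0.76 ± 0.199, adjusted p = 0.0079, ratio of medians 1.66), but it was when the first library of 14.5 dpp was left out (-1.05). Here, as wherever a library of 14.5 dpp is left out, the other groups supply the spread, and the 1 library left is assumed to vary as they do.

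Aldh1a2 was at 1.32, 1.57 and 1.34 FPKM at 8.5 dpp and at 1.79 and 1.87 FPKM at 14.5 dpp. It then stood at 26.2, 34.4 and 18.4 FPKM at 24.5 dpp, 44.1, 46.4 and 44.9 FPKM at 30.5 dpp, 35.6, 41.0 and 43.7 FPKM at 36.5 dpp and 32.0, 34.4 and 33 FPKM at 53.5 dpp. Every library from 24.5 dpp on was above every earlier one. The rise between 14.5 and 24.5 dpp was 3.23 ± 0.177 (limma, adjusted p = 2.5e-09), a 14.3-fold ratio of medians, and no later step was called. The step from 24.5 to 30.5 dpp was 0.80 ± 0.158 (limma, adjusted p = 0.00044, ratio of medians 1.71), and it was called without the second library of 24.5 dpp (1.01) and under median-ratio scaling (1.26). Aldh1a2 made up 0.405% ± 0.0495 (SD, n = 3) of the summed FPKM of both genes at 8.5 dpp and 0.909% ± 0.278 (n = 2) at 14.5 dpp. Its share was 26.1% ± 10.1 at 24.5 dpp, 61.5% ± 3.01 at 30.5 dpp, 68.4% ± 0.702 at 36.5 dpp and 69.5% ± 3.09 at 53.5 dpp (SD, n = 3). The summed level of both genes went down over the same ages, from 348 ± 9.37 to 47.7 ± 2.15 FPKM.

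**Figure D2:**
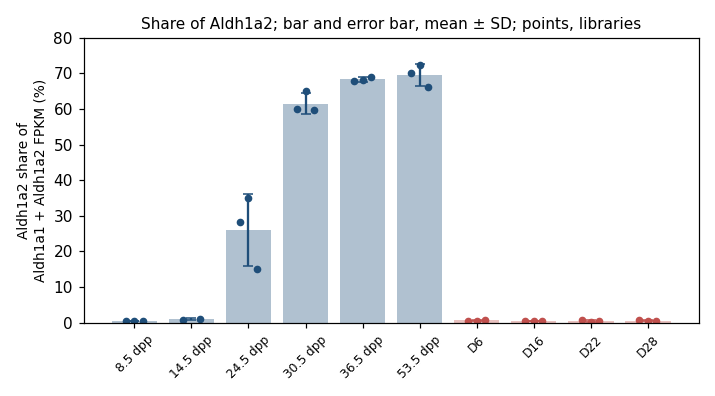
Share of Aldh1a2 in the summed FPKM of Aldh1a1 and Aldh1a2 (vertical axis, percent) in each group; bars and error bars are mean ± SD and points are libraries, blue for testes in vivo and red for explants. The share passes 59% in every library from 30.5 dpp on and is below 1% in every explant library.

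Rdh10, which makes the first oxidation, and Dhrs3, which reduces retinal back to retinol, both had group means under 15 FPKM in vivo. Rdh10 ranged from 10.1 to 19.5 FPKM at 8.5 and 14.5 dpp and from 3.03 to 4.75 FPKM at 30.5 dpp, the lowest age. Its values at 53.5 dpp, 11.9, 14.2 and 7.93 FPKM, overlapped those at 8.5 dpp. The drop between 24.5 and 30.5 dpp, 1.18 ± 0.307 (limma, adjusted p = 0.0033), was called. It rested on a 2.04-fold ratio of medians, and without the third library at 24.5 dpp it was 0.86 and not called, and without the third at 30.5 dpp 1.04 and not called. It was also not called under median-ratio scaling (-0.77) or quantile normalization (-0.86). Dhrs3 was highest at 14.5 dpp, with 7.94 and 8.88 FPKM, and lowest at 53.5 dpp, with 1.82, 1.79 and 1.5 FPKM. None of its steps between successive ages was called, but the difference between 8.5 and 53.5 dpp was (limma, -1.31 ± 0.158, adjusted p = 1.5e-06). Under median-ratio scaling and quantile normalization that difference was -0.59, and it was not called.

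Lrat, which esterifies retinol for storage, was at 0.316, 0.137 and 0.160 FPKM at 8.5 dpp and at 0.695 and 0.567 FPKM at 14.5 dpp. It reached 4.11, 4.94 and 3.85 FPKM at 24.5 dpp and ranged from 2.73 to 4.16 FPKM at the 3 later ages. The groups up to 14.5 dpp and those from 24.5 dpp did not overlap. Lrat rose by 0.44 ± 0.108 from 8.5 to 14.5 dpp (limma, adjusted p = 0.0052) and by 1.70 ± 0.108 from 14.5 to 24.5 dpp (limma, adjusted p = 1.3e-08).

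Crabp1, a cytosolic binding protein of retinoic acid known from spermatogonia, had a peak at 14.5 dpp. It was at 17.8, 17.9 and 18.5 FPKM at 8.5 dpp, at 93.6 and 93.7 FPKM at 14.5 dpp and at 20.0, 16.7 and 31.7 FPKM at 24.5 dpp. At 30.5 dpp it was at 5.72, 4.54 and 6.58 FPKM, at 36.5 dpp at 4.66, 4.41 and 5.19 FPKM and at 53.5 dpp at 2.68, 2.05 and 3.75 FPKM. Both libraries of 14.5 dpp stood above all others. Crabp1 rose by 2.31 ± 0.222 to 14.5 dpp (limma, adjusted p = 5.3e-06), then fell by 2.04 ± 0.222 to 24.5 dpp (limma, adjusted p = 2.9e-06) and by 1.81 ± 0.199 to 30.5 dpp (limma, adjusted p = 2.7e-06). Between 8.5 and 14.5 dpp, Crabp1 and Lrat were the 2 genes of the 8 called, against 14.7% of all genes. Between 14.5 and 24.5 dpp 5 of the 8 were called, against 35.6% of all genes, and between 24.5 and 30.5 dpp 3 of the 8, against 37.6%.

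Cyp26b1, the enzyme that breaks down retinoic acid and is known from peritubular cells of mouse testis, ranged from 83.0 to 130 FPKM at 8.5 and 14.5 dpp. At 24.5 dpp it was at 44.7, 29.3 and 51.9 FPKM, and at 53.5 dpp at 13.0, 10.9 and 14.8 FPKM. It fell by 1.43 ± 0.249 between 14.5 and 24.5 dpp (limma, adjusted p = 0.00019), and no other step between successive ages was called. Rara, the alpha receptor, known in mouse testis for its part in Sertoli cells, went from 72.7, 66.5 and 56.1 FPKM at 8.5 dpp to 12.6, 14.0 and 13.0 FPKM at 53.5 dpp. None of its steps reached a 2-fold ratio of medians, except that the step to 24.5 dpp was called without the third library of 24.5 dpp (-1.01) and after quantile normalization (-1.05), and that to 30.5 dpp without the second of 24.5 dpp (-0.99) or the third of 30.5 dpp (-0.90). By contrast, the difference between 8.5 and 53.5 dpp was -2.21 ± 0.136 (limma, adjusted p = 7.0e-10). By limma, 0 of the 8 genes were called between 30.5 and 36.5 dpp, where 7.49% of all genes were, and 0 between 36.5 and 53.5 dpp, where 6.54% were. In each of these steps 2 genes had an unadjusted p under 0.05. Under median-ratio scaling Rdh10 was called in both, with 0.94 and 0.98. Without the limit of 2-fold, Aldh1a1 passed the test between 30.5 and 36.5 dpp (-0.58, limma, adjusted p = 0.022) and Crabp1 between 36.5 and 53.5 dpp (-0.61, limma, adjusted p = 0.027).

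Marker genes of the testis' cells moved over the same ages. The summed FPKM of 7 spermatocyte genes ranged from 13.1 to 13.6 at 8.5 dpp and from 1303 to 1363 at 24.5 dpp, and all 7 were higher at 24.5 than at 14.5 dpp. Their sum then went down, to 670 to 754 FPKM at 30.5 dpp and 288 to 401 FPKM at 53.5 dpp. Between 24.5 and 30.5 dpp 3 of the 7 were called lower and 0 higher. The 9 Sertoli cell genes summed to 1475 to 1562 FPKM at 8.5 dpp, to 1860 to 2447 FPKM at 14.5 dpp and to 2009 to 2876 FPKM at 24.5 dpp. Singly they did not all follow that sum. From 8.5 to 14.5 dpp 2 were called higher and 0 lower. From 14.5 to 24.5 dpp 5 were called lower and 1, Clu, higher, with a median difference of -0.97 over the list. Aldh1a1 went down over these ages. The same 9 genes summed to 336 to 464 FPKM at 53.5 dpp, where 6 of them were lower than at 8.5 dpp. The 4 peritubular genes summed to 389 to 467 FPKM at 8.5 dpp and to 19.2 to 27.3 FPKM at 53.5 dpp, and all 4 were lower. The 7 spermatogonial genes summed to 339 to 347 FPKM at 14.5 dpp and to 47.6 to 52.8 FPKM at 53.5 dpp. The 5 spermatid genes summed to 12.7 to 13.0 FPKM at 24.5 dpp and to 11763 to 17295 FPKM at 53.5 dpp, and Prm1 and Tnp1 were listed at 0 in all libraries of 24.5 dpp. In a whole tissue fewer cells of a type and less RNA per cell cannot be told apart, and the part of these lists in the results above was not tested.

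**Figure D3:**
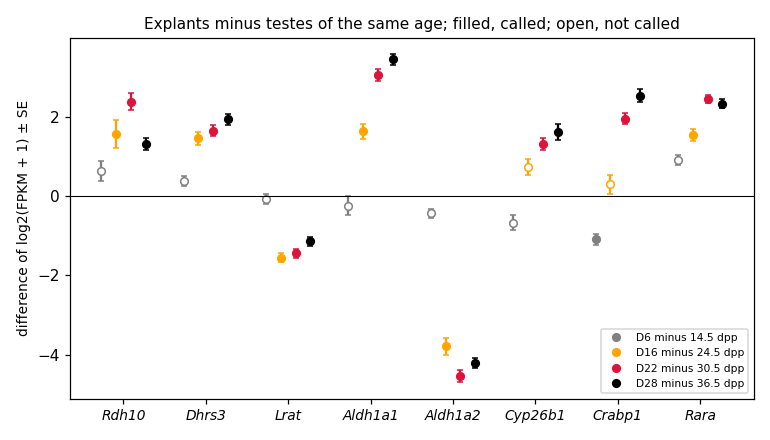
Difference of log2(FPKM + 1) between explants and testes of the same age (vertical axis), with its SE, for each gene (horizontal axis) and pair of groups (colours); filled points were called and open points were not. From D16 on Aldh1a2 and Lrat lie below 0 and the other 6 genes above it.

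The comparison of explants with testes of the same age shows how far each gene's course in culture left that in vivo. After 6 days 1 of the 8 genes was called, Crabp1, against 7.94% of all genes. With the first of the 2 libraries of 14.5 dpp left out Rdh10 was called as well (1.05), and with the second left out Rara (1.02), where in both the 3 D6 libraries alone gave the spread. At D16, 6 of the 8 were called against the testes at 24.5 dpp, and 43.6% of all genes were. At D22 against 30.5 dpp and at D28 against 36.5 dpp, all 8 were called, where 65.0% and 70.3% of all genes were. In both, 6 genes were higher, against 42.1% of all genes at D22 and 46.7% at D28, and 2, Aldh1a2 and Lrat, were lower, against 22.9% and 23.6%. With the libraries rescaled by their median ratios, 3902 genes were called higher and 3537 lower at D22, in place of 5104 and 2773, and 4123 higher and 3956 lower at D28, in place of 5701 and 2884. The median difference was 0.12 over all genes and 1.09 over the 8 at D16, 0.51 and 1.80 at D22, and 0.64 and 1.77 at D28. Median-ratio scaling took the median over all genes to 0.14 at D22 and 0.11 at D28, and no called difference of the 8 genes changed direction.

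From D16 on, Aldh1a2 was the farthest apart of the 8 genes. It was at 1.04, 1.17 and 1.10 FPKM at D6, 1.05, 0.886 and 0.835 FPKM at D16, 1.48, 0.886 and 0.684 FPKM at D22 and 1.55, 1.04 and 1.09 FPKM at D28. No explant library reached the lowest library at 14.5 dpp, and the testes from 24.5 dpp on were all above 18 FPKM. The differences were -3.79 ± 0.212 at D16 (limma, adjusted p = 1.6e-05), -4.54 ± 0.151 at D22 (limma, adjusted p = 4.3e-07) and -4.21 ± 0.133 at D28 (limma, adjusted p = 1.2e-07), with ratios of medians of 29.6, 50.7 and 37.5. At 36.5 dpp, the spermatocyte list summed to 464 to 474 FPKM and at D28 to 50.2 to 63.7 FPKM, and all 7 of its genes were lower in explants. Against 8.5 dpp all 7 were called higher at D16, D22 and D28, while Aldh1a2 differed by -0.32, -0.27 and -0.12 and was not called. The part of this list in the difference was not tested.

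Aldh1a1 stayed near its level at 14.5 dpp in all explants. It was at 190, 198 and 137 FPKM at D6, 229, 234 and 250 FPKM at D16, 217, 298 and 214 FPKM at D22 and 179, 231 and 227 FPKM at D28. All these libraries exceeded those of 24.5 dpp and later, whose highest value was 103 FPKM. It was higher than in testes of the same age by 1.63 ± 0.188 at D16 (limma, adjusted p = 0.00028), 3.05 ± 0.157 at D22 (limma, adjusted p = 2.4e-06) and 3.44 ± 0.132 at D28 (limma, adjusted p = 3.1e-07). Aldh1a2 made up 0.389% ± 0.0634 (SD, n = 3) of both genes at D16, 0.431% ± 0.216 at D22 and 0.595% ± 0.228 at D28, as the plot of that share shows. The Sertoli cell list summed to 3828 to 4625 FPKM at D28 and to 560 to 707 FPKM at 36.5 dpp, with 8 of its 9 genes higher in explants. Its part in the difference was not tested.

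Lrat was at 0.542, 0.652 and 0.479 FPKM at D6 and at 0.948, 1.29 and 0.873 FPKM at D28, below every testis from 24.5 dpp on. The difference was -1.55 ± 0.123 at D16 (limma, adjusted p = 5.6e-05) and -1.14 ± 0.115 at D28 (limma, adjusted p = 4.6e-05). Rara, in contrast, stood higher in every explant library, from 73.7 to 96.1 FPKM, than in any testis, where its highest value was 72.7 FPKM at 8.5 dpp. It exceeded the testes of the same age by 1.54 ± 0.151 at D16 (limma, adjusted p = 0.00013), 2.45 ± 0.108 at D22 (limma, adjusted p = 1.3e-06) and 2.32 ± 0.114 at D28 (limma, adjusted p = 1.1e-06).

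Crabp1 was at 43.4, 38.5 and 49.3 FPKM at D6, 24.3, 25.8 and 32.2 FPKM at D16, 26.0, 22.0 and 25.0 FPKM at D22 and 30.9, 26.5 and 40.5 FPKM at D28. At D6 it was lower than at 14.5 dpp (limma, -1.09 ± 0.143, adjusted p = 0.0084), at D16 it overlapped the testes at 24.5 dpp (limma, 0.30 ± 0.236, adjusted p = 0.29), and at D28 it was higher than at 36.5 dpp (limma, 2.53 ± 0.163, adjusted p = 4.0e-06). The order of culture and testis thus turned between the first and the last of these ages. The spermatogonial list summed to 301 to 341 FPKM at D28 and to 50.2 to 59.4 FPKM at 36.5 dpp, and all 7 of its genes were higher in explants. At D28 against 14.5 dpp 0 of the 7 were called, with a median difference of -0.45, while Crabp1 differed by -1.51. The part of this list in the differences was not tested.

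Rdh10, Dhrs3 and Cyp26b1 were also higher in explants than in testes of the same age by D28. Dhrs3 was at 11.6, 11.9 and 11 FPKM at D28 and at 2.46, 1.77 and 2.67 FPKM at 36.5 dpp (limma, 1.93 ± 0.129, adjusted p = 4.9e-06). Cyp26b1 was at 57.5, 59.4 and 62.2 FPKM at D28 and at 25.6, 19.2 and 13.5 FPKM at 36.5 dpp (limma, 1.61 ± 0.210, adjusted p = 0.00020), and Rdh10 at 18.8, 19.8 and 17.9 FPKM against 8.37, 7.61 and 5.29 FPKM (limma, 1.31 ± 0.161, adjusted p = 0.00014). None of the 3 genes overlapped between these groups. Under median-ratio scaling Cyp26b1 was higher by 0.94 and Rdh10 by 0.68, with ratios of medians under 2, so that neither was called.

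The study set the explants against the immature 14.5 dpp testes and left D6 out of that comparison. By the F test over D16, D22 and D28, 1 of the 8 genes was called, Crabp1, against 16.2% of all genes. A second gene was also called when single libraries were left out: Rdh10 without the first of 14.5 dpp or the second of D16, Cyp26b1 without the second of 14.5 dpp, and Aldh1a2 without the first of D22. Crabp1 was lower by 1.74 ± 0.175 at D16 (limma, adjusted p = 0.00016), 1.91 ± 0.175 at D22 (limma, adjusted p = 7.8e-05) and 1.51 ± 0.175 at D28 (limma, adjusted p = 0.00020). Crabp1 was called in every one of these contrasts under all alternatives. In the single contrasts 3 genes were called at D16, 2 at D22 and 1 at D28, against 13.0%, 13.8% and 15.3% of all genes. Counted by direction, 6.87%, 7.76% and 8.4% of all genes were higher and 6.14%, 5.99% and 6.88% lower. The others were Aldh1a2, lower by 0.56 at D16 (limma, adjusted p = 0.025) and 0.51 at D22 (limma, adjusted p = 0.034), and Rdh10, higher by 1.16 at D16 (limma, adjusted p = 0.019).

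These other calls were lost when single libraries were left out. At D16, that of Aldh1a2 was lost without either library of 14.5 dpp (-0.58, adjusted p = 0.076 without the first and -0.54, 0.098 without the second, limma, with the spread from the explants alone), and without the second or the third D16 library (adjusted p = 0.065 and 0.070, limma). At D22, it was lost without either library of 14.5 dpp (adjusted p = 0.095 and 0.12, limma), without the second D16 library (adjusted p = 0.051, limma) and without the second or the third D22 library (adjusted p = 0.089 and 0.10, limma). That of Rdh10 at D16 was lost without the second library of 14.5 dpp, where the difference was 0.76 (limma, adjusted p = 0.16), and without the first or the third D16 library (adjusted p = 0.062 and 0.060, limma). The 2 libraries of 14.5 dpp lay far apart for Rdh10, at 18.5 and 10.1 FPKM. At D22 Rdh10 was called when the first of them was left out (1.20), and at D28 Cyp26b1 when the second was (-1.11).

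Cyp26b1, Rara and Dhrs3 passed the test in all 3 contrasts with a ratio of medians under 2. At D28 Cyp26b1 differed by -0.90 ± 0.161 (limma, adjusted p = 0.0021), Rara by 0.74 ± 0.116 (limma, adjusted p = 0.0010) and Dhrs3 by 0.41 ± 0.129 (limma, adjusted p = 0.029). The values of each of the 3 genes did not overlap between 14.5 dpp and D28. Aldh1a1 differed by 0.05 ± 0.200 at D28 (limma, adjusted p = 0.87), and its sign changed with the library left out.

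Set against the 8.5 dpp testes from which the explants were cut, 2 genes were called at D6, Crabp1 and Lrat, where 16.1% of all genes were. At D16 the 3 called genes were Rdh10, Lrat and Dhrs3, against 22.1% of all genes, and at D22 and D28 it was Lrat, against 23.5% and 24.0%. These called genes were higher in explants, as were 9.9% of all genes at D6, 12.4% at D16, and 13.6% at both D22 and D28. Dhrs3 was at 17.9, 12.8 and 14.5 FPKM at D16 and at 6.37, 6.09 and 4.75 FPKM at 8.5 dpp (limma, 1.25 ± 0.114, adjusted p = 1.1e-06). At D6, D22 and D28 it differed by 0.87, 0.91 and 0.90, with ratios of medians of 1.84, 1.88 and 1.90, and it was called at all 3 times when the first or the second 8.5 dpp library was left out. Aldh1a1 was the 1 gene that went the other way in such a refit: at D6 it differed by -1.0 (limma, adjusted p = 0.00016, ratio of medians 1.82), and it was called without the first (-1.07) or the second (-1.10) D6 library. Rdh10 at D22 was called without the first (0.93) or the third (0.78) D22 library. Rdh10 at D16, with 41.0, 21.0 and 37.4 FPKM, was higher by 1.13 ± 0.249 than at 8.5 dpp (limma, adjusted p = 0.0017). Lrat was higher by 0.37 ± 0.109 at D6 (limma, adjusted p = 0.013) and by 0.76 ± 0.109 at D28 (limma, adjusted p = 5.4e-05). By limma, 0 of the 8 genes were called between D6 and D28, where 5.91% of all genes were, while 2 passed at an adjusted p of at most 0.05 alone and the same number at an unadjusted p under 0.05. These were Crabp1, -0.43 ± 0.146 (limma, adjusted p = 0.047), and Lrat, 0.38 ± 0.109 (limma, adjusted p = 0.020), which was called without the first or the third D28 library (0.41 and 0.44). The comparisons with 8.5 dpp share the same 3 testes.

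In the order of group means, Aldh1a1 was highest at 8.5 dpp, followed by D22, D16, D28, 14.5 dpp and D6, and these last 5 overlapped from each to the next. For Rara and Dhrs3 all 4 explant groups came before any group in vivo, and for Rdh10 too, although D28, D6 and D22 each reached into the range of the 8.5 dpp testes there. For Aldh1a2 and Lrat the 4 testes groups from 24.5 dpp on came first. In Aldh1a2 the 4 explant groups came last, below 8.5 dpp, whose range met that of D28. Crabp1 and Cyp26b1 had their highest mean at 14.5 dpp. The 4 explant groups of Crabp1 lay between 14.5 and 24.5 dpp and each overlapped the next, down to 24.5 dpp. Those of Cyp26b1 lay between 8.5 and 24.5 dpp and overlapped each other, but not the testes on either side.

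Correlated over the 29 libraries as a description, the 8 genes formed 2 sides, with Aldh1a2 and Lrat on one (r = 0.94) and the other 6 on the other. Aldh1a2 and Rara had r = -0.97, and Aldh1a1 and Cyp26b1 r = 0.94. The libraries share age and culture as sources of variation, and the groups differ in the markers of several cell types, so r describes shared courses and nothing more. Among 12085 genes with a group median of at least 1 FPKM, the courses most like that of Aldh1a1 were those of Trim35 (r = 0.994), Lbh (r = 0.992) and Smim30l1 (r = 0.992). For Aldh1a2 they were those of Rad9b, Spag6l and Samd15 (each r = 0.997), and for Lrat those of Trim43a (r = 0.981), Tesmin (r = 0.980) and Cst9l (r = 0.979). Crabp1 was followed by Rasd2 (r = 0.980), Sertad4 (r = 0.979) and Dnmt3b (r = 0.978), and Rara by Bin1 (r = 0.990), Trip10 (r = 0.989) and Nhsl3 (r = 0.989). Cyp26b1 was nearest to Lmod1 (r = 0.982), Adgrl1 (r = 0.978) and Trim25 (r = 0.978), and Dhrs3 to B4galt6 (r = 0.980), Tspan18 (r = 0.978) and Itpkb (r = 0.978). Rdh10 had no course as near, with Bicd2 (r = 0.919), Synj2 (r = 0.899) and Plpp6 (r = 0.897).

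Other genes of the pathway were taken from a list of carriers and binding proteins, further dehydrogenases and esterases, degrading enzymes, receptors with a corepressor, and genes known to respond to retinoic acid. Of these, 32 had a row, and 25 passed the filter in the comparison of explants with 14.5 dpp. In single contrasts with 14.5 dpp, 4 were higher and 2 lower at D16, 4 higher and 2 lower at D22, and 4 higher and 1 lower at D28, while 6.87%, 7.76% and 8.4% of all genes were higher and 6.14%, 5.99% and 6.88% lower. Against testes of the same age, 14 of 26 tested were higher and 5 lower at D22, and 14 of 25 higher and 5 lower at D28. Of all genes, 42.1% were higher and 22.9% lower at D22, and 46.7% and 23.6% at D28, so these shares lie near the background. The median of the list at D28 against 36.5 dpp was 1.15, and that of all genes 0.64. Another 6 passed the filter in no comparison, and Rxrb, a partner receptor, was called in 0 of the 18 contrasts in which it was tested. Kit and Sohlh1 stand both in this list and among the spermatogonial markers.

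**Figure D4:**
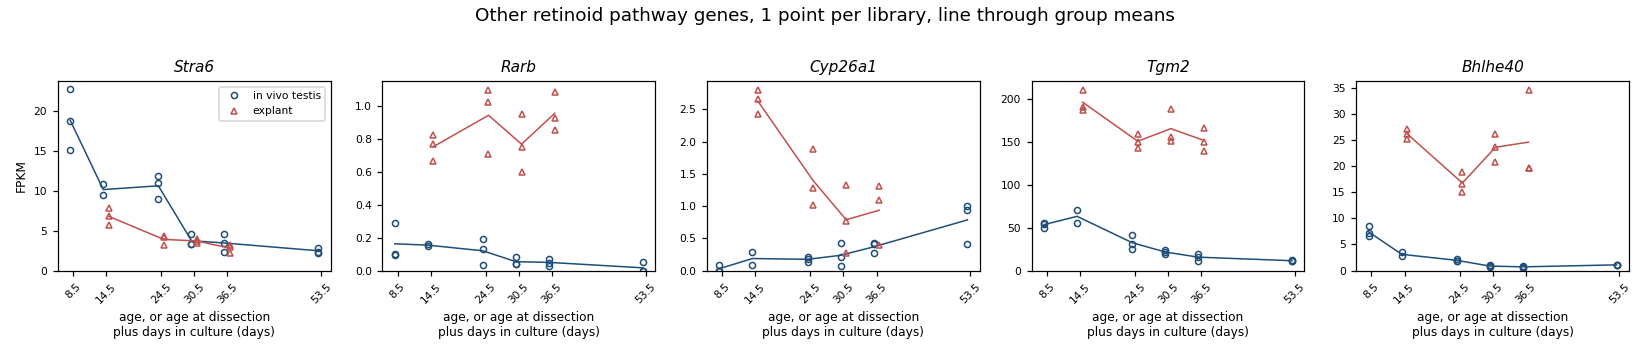
FPKM of 5 further pathway genes (vertical axes, linear) against age, or age at dissection plus days in culture (horizontal axes, days). Circles are testes in vivo, triangles explants, and lines join group means. Rarb, Tgm2 and Bhlhe40 are above every testis in every explant library, and Stra6 is at or below 7.81 FPKM in explants.

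Of the pathway genes, 4 were called in every contrast of explants with 14.5 dpp. Stra6, the membrane receptor that takes up retinol from its plasma carrier, was at 9.46 and 10.8 FPKM at 14.5 dpp and at 3.23, 2.21 and 2.91 FPKM at D28 (limma, -1.56 ± 0.144, adjusted p = 6.5e-05). Stra6 was thus the 1 lower gene of these 4, and the other 3 were higher. At D6 against 14.5 dpp Stra6 was not called, and the other 3 were called higher. From D6 to D28 Stra6 was called lower. Against testes of the same age it was called lower at D16, but it was not called at D22 or D28. In vivo Stra6 was called lower at 30.5 than at 24.5 dpp, and at 53.5 than at 8.5 dpp. Tgm2, a transglutaminase known to be induced by retinoic acid, was at 55.5 and 71.2 FPKM at 14.5 dpp and at 140, 166 and 150 FPKM at D28 (limma, 1.26 ± 0.139, adjusted p = 0.00015). Bhlhe40, a transcription factor, was at 3.46 and 2.75 FPKM at 14.5 dpp and at 34.5, 19.7 and 19.6 FPKM at D28 (limma, 2.6 ± 0.227, adjusted p = 5.1e-05). The lowest explant value of Tgm2 and of Bhlhe40 was above the highest of any testis. The 4 genes are named because of their calls and do not stand for the list. Of 7 tested genes listed as responsive to retinoic acid, Tgm2 and Bhlhe40 were called higher at D16, D22 and D28 against 14.5 dpp. The other 5 were not called higher in these contrasts, and Sohlh1 was called lower at D22. At D28 against 36.5 dpp, 6 of the 7 were called higher and 1 lower, where 46.7% and 23.6% of all genes were. The median difference of these 7 from 14.5 dpp was negative after 16 days (-0.42) and 22 days (-0.23), but positive after 28 days (0.37).

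Rarb, the beta receptor, itself a textbook target of retinoic acid, was at 0.160 and 0.150 FPKM at 14.5 dpp and at 0.854, 1.08 and 0.932 FPKM at D28 (limma, 0.76 ± 0.119, adjusted p = 0.0010). Over all ages in vivo it ranged from 0 to 0.289 FPKM, and over all explants from 0.603 to 1.10 FPKM. Cyp26a1, a second degrading enzyme and textbook target, is named after its values were seen. It ranged from 0 to 0.997 FPKM in vivo, was at 2.42, 2.79 and 2.66 FPKM at D6 and at 1.09, 1.31 and 0.396 FPKM at D28, and was called at D16 (limma, 1.0 ± 0.280, adjusted p = 0.021), but not at D22 (limma, 0.55 ± 0.280, adjusted p = 0.15) or D28 (limma, 0.68 ± 0.280, adjusted p = 0.078). The call at D16 was lost without either library of 14.5 dpp (adjusted p = 0.11 and 0.054, limma) or without the first of D16 (adjusted p = 0.067, limma), and D28 was called without the third D28 library (0.90, limma, adjusted p = 0.032). In 1 fit of all 10 groups it was called at D22 (limma, adjusted p = 0.0497) and D28 (limma, adjusted p = 0.015), and with a pseudocount of 0.1 at D28 (limma, adjusted p = 0.046). From D6 to D28 the difference was -0.94, and this was called. Both genes lie at low levels and passed the filter only through the groups in which they are higher.

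Retinoic acid receptors are known to bind pairs of half-sites in direct repeat. The half-sites AGGTCA and AGTTCA, and also GGGTCA or GGTTCA, spaced by 1, 2 or 5 bases, were searched on both strands of windows from 250 bases before to 50 bases from each start in RefSeq, rat build GRCr8. A repeat was held by 0.777% of 33469 windows, one spaced by 5 by 0.382%, and a single half-site by 44.4%. Of 34 pathway genes with a window, 2 held a repeat, Cyp26a1 and Rarb, both spaced by 5. None of the 7 windows of Rara, Dhrs3, Lrat, Aldh1a1, Aldh1a2, Cyp26b1 and Crabp1 held one, and Rdh10 had no window. The 2 sequences are printed because these were the genes whose window held a repeat. The repeat is in capitals. It is read on the minus strand in Cyp26a1, as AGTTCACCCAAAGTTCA, from 92 to 76 bases before the start. For Cyp26a1 all 250 bases before the start are given (chr1:244883572-244883821, plus strand). In Rarb the repeat covers bases 25 to 41 from the start (chr15:11336416-11336432, plus strand), and those bases alone are given.
Cyp26a1: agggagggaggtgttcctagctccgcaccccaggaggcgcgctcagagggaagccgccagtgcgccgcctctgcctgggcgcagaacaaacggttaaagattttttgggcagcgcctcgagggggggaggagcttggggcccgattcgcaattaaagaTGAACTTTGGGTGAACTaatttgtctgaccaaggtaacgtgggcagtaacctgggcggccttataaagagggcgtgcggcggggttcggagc
Rarb: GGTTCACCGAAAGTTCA
A match is a description of letters and shows neither binding nor a cause.

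At D28 against 14.5 dpp, 15.3% of all genes were called. Of 9 Sertoli cell genes 1 was, Clu, which was higher, and of the 7 spermatogonial and 7 spermatocyte genes 0 were. Markers of other cells did set the explants apart from the 14.5 dpp testes. The 6 Leydig cell genes summed to 145 to 306 FPKM at 14.5 dpp and to 24.4 to 36.8 FPKM at D28, and all 6 were lower. The 4 peritubular genes summed to 218 to 362 FPKM and 69.5 to 90.9 FPKM, with 3 lower, and the 4 endothelial genes to 24.6 to 30.9 FPKM and 46.9 to 71.1 FPKM, with 2 higher. Of 5 macrophage genes, summing to 6.95 to 7.32 FPKM and 20.2 to 37.4 FPKM, 4 were tested and 3 of them were higher, while Cd163 was listed at 0 in all D28 libraries. The 2 blood genes in the table summed to 246 to 392 FPKM at 14.5 dpp and to 4.41 to 8.49 FPKM at D28. They went opposite ways, with Hbb called lower and Alas2 called higher. By contrast, of the 5 spermatid genes 3 were tested and 0 were called. Their list summed to 5.80 to 19.4 FPKM at 14.5 dpp, with 2 genes listed at 0 in all libraries. At D28 it ranged from 3.85 to 4.59 FPKM, with Prm1, Tnp1 and Acrv1 listed at 0. The part of these lists in the values above was not tested.

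Libraries were alike within groups, with Pearson's r of log values from 0.977 to 0.990, and 12520 to 13563 genes were above 0 in each. The table held no counts. Relative depth, read from the steps of low values, ran from 0.812 to 1.47 over the libraries, and the absolute depth is unknown.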

How the data were processed

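Testes and explants were sequenced as 30 single-end polyadenylated RNA libraries, 29 of which were used. Per the study's methods, the authors mapped 50-base reads to rn6 with STAR 2.5.2a, quantified RefSeq transcripts with StringTie and Ballgown, and deposited 1 table of FPKM values. The methods name the unit RPKM, which for single reads is the same quantity. FPKM are relative to mapped reads, so a very abundant transcript class lowers all other values. The deposited table gives no counts.

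Values were tested as log2(FPKM + 1) by lmFit and eBayes of limma 3.58.1 (R 4.3.3), Benjamini-Hochberg adjusted over all genes with a group median of at least 0.5 FPKM, in a fit of the groups of each comparison. Calls needed an adjusted p of at most 0.05 and a ratio of medians of at least 2. Tables and plots were made with Python 3.11.15, pandas 2.3.3 and matplotlib 3.10.9. The fits were tested on simulated shifts. The members and lists were chosen with earlier results of these data known. 1 gene of the pathway list is not reported here and enters no count of that list. Named genes were the members and, for each member, the 3 genes with the highest Pearson's r. Pathway genes were named if called at D16, D22 and D28 against 14.5 dpp, or in no contrast. Alternatives were pseudocounts of 0.1 and 0.5, no filter or a minimum of 1 FPKM, median-ratio and quantile scaling, 1 fit of all groups, a prior variance that follows the mean, no limit on the ratio, a replicate block and leaving out each library. Replicates in vivo were different testes, and each cultured replicate pooled explants from several juvenile males. P-values set the difference between groups against the spread between libraries within groups.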

Additional observations from a re-analysis of the deposited data

Results flagged for a closer look

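Culture and growth in vivo both started from the state at 8.5 dpp, so the difference between D28 and 36.5 dpp is also the difference between the 2 changes since 8.5 dpp, tested by limma on log2(FPKM + 1) with 3 libraries a group. It passed for each of the 8 genes, as for 70.3% of all genes. The change in culture minus that in vivo was 3.44 for Aldh1a1, 1.31 for Rdh10, 2.53 for Crabp1, 1.61 for Cyp26b1, 2.32 for Rara and 1.93 for Dhrs3, and it was -4.21 for Aldh1a2 and -1.14 for Lrat. No group held the 4 libraries needed to look for single libraries far from the others, so none was looked for.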

How the results depend on the processing

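Over 144 differences of the 8 genes, each computed under every alternative in which the gene was tested, 53 were called and none of these changed direction, and 45 kept their call throughout. The sign changed in 26 values of 17 differences that were not called. Among differences given in the text this was the case for Aldh1a1 at D28 against 14.5 dpp, with -0.057 after quantile normalization and a range from -0.24 to 0.34 when single libraries were left out. The number of the 8 genes called against 14.5 dpp was 6 at D16, 5 at D22, 4 at D28 and 4 by the F test with the adjusted p alone, 1 at D22 with median-ratio scaling, 2 at D28 and 3 by the F test after quantile normalization, and 3 by the F test in 1 fit of all groups. With the adjusted p alone it was 2 for D6 against 14.5 dpp, 5, 8, 7 and 6 for D6, D16, D22 and D28 against 8.5 dpp, and 2 for D28 against D6. With a minimum of 1 FPKM, which leaves Lrat out of that fit, it was 1, 0 and 0 for D6, D22 and D28 against 8.5 dpp. When single libraries were left out the number against 14.5 dpp ranged from 1 to 3 at D16, from 1 to 2 at D22, at D28, by the F test and at D6, and against 8.5 dpp from 1 to 2 at D22 and D28, and from 0 to 1 for D28 against D6. The cause of these moves was not tested.

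Replicate numbers are shared by the groups, but same-numbered libraries deviated from their group means with correlations from -0.12 to 0.24 over 96 pairs, so the numbers were not taken to pair the libraries. Over all genes, calls between 24.5 and 30.5 dpp numbered 3135 under median-ratio scaling in place of 4715, and those between 8.5 and 14.5 dpp 1200 in place of 1841 without the second 14.5 dpp library. At D6 against 14.5 dpp they numbered 376 with the block and 406 to 564 without single D6 libraries, in place of 898. With the adjusted p alone, calls between successive ages in vivo numbered 4833, 7521, 8624, 4260 and 4808 in place of 1841, 4455, 4715, 938 and 820. Against 14.5 dpp they numbered 3860, 4185 and 4733 at D16, D22 and D28 and 3867 by the F test, in place of 1498, 1584, 1760 and 1868, at D6 1755 in place of 898, and at D16 against 24.5 dpp 8445 in place of 5082. Against 8.5 dpp they numbered 5557, 6701, 6866 and 6886 at the 4 culture times in place of 1861, 2550, 2712 and 2773, and for D28 against D6 3065 in place of 682. With the replicate number as a block, the number of the 8 genes called did not move in any comparison, with 8 over the ages in vivo, 1 by the F test against 14.5 dpp, and 1, 6, 8 and 8 against testes of the same age. The table holds no counts, so the depth behind the lowest values, those of Rarb, Cyp26a1 and Lrat, is not known.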
